A study of Mus musculus with 6 samples.

Results

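The genes described here are the matrix metalloproteinases (MMPs), their tissue inhibitors (TIMPs), the ADAM, ADAMTS and ADAMTS-like families and the lysyl oxidases, measured in mouse liver on day 21 after tumor implantation. They were taken by symbol from the count table as every Mmp, Timp, Adam, Adamts, Adamtsl and Lox gene listed, with Adamts13 left out, which gave 59 genes of 20140. Bulk RNA-seq was performed on 6 livers, 2 per group. The sham livers are titled control, with sham in their library names, and the study describes sham-operated mice as controls of its models. The intra-C livers came from mice with CT26 cells placed orthotopically in the cecum, which the study treats as the premetastatic niche model. The intra-S livers came from mice with CT26 cells injected into the spleen, its metastasis model. CT26 is a mouse colorectal carcinoma line of BALB/c origin, so tumor transcripts and liver transcripts map to the same genes. Of the models, the labels give only the group name, the line and the day. The models' description is the study's, which gives BALB/c for them and the age only as a range for all its tumor models. No engineered allele is named for any group. Group, route of implantation and number of cells implanted changed together and cannot be told apart. The study gives more CT26 cells for the orthotopic than for the intrasplenic model. Nothing says whether the pair of livers in a group came from separate experiments, so p-values measure only the spread between these samples.

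The extracellular matrix is cut by MMPs, which are secreted or anchored in the membrane as inactive precursors, and TIMPs block the active enzymes by binding their zinc site. ADAMs are mostly membrane proteins that shed the outer part of receptors and growth factors, ADAMTS enzymes are secreted and cut proteoglycans or trim procollagen, and ADAMTS-like proteins share their binding modules without the protease. Lysyl oxidases do the opposite work and cross-link collagen and elastin. In the liver these genes are known from stellate cells, macrophages, neutrophils and endothelium, and are studied for their part in fibrosis and in the seeding of metastases.

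Most of the genes stood higher in both tumor models than in sham livers. Livers are compared in CPM, the read count of a gene scaled by the TMM-adjusted library total, and genes in TPM, which also divides by gene length. Where a pair of values is given for a group, liver 1 comes first. The summed TPM of the 59 genes was 128 in both sham livers, 166 and 183 in the intra-C livers, and 230.0 and 175 in the intra-S livers. Of the 59 genes, 52 had enough counts to be tested. Fold changes and p-values come from edgeR's quasi-likelihood test fitted over all 6 livers, with Benjamini-Hochberg adjustment over the 16370 genes tested, and a gene was called at an adjusted p under 0.05. In intra-C livers 10 of the 52 were called higher and 1 lower than in sham, where 4.92% of all tested genes were called higher, 2.38% lower and 7.30% either way. In intra-S livers 18 were called higher and 2 lower, where 6.78% of all tested genes were called higher, 3.95% lower and 10.7% either way. An unadjusted p under 0.05 was reached by 26 and 32 of the 52, beside 27.0% and 30.2% of all tested genes. The median log2 fold change of the 52 was 0.96 in intra-C and 1.99 in intra-S, beside 0.01 and 0.04 over all tested genes, and it kept these values to 2 decimals with Timp4, which had 0 counts in sham, set at its bound. The intra-S median was 1.22 without intra-S liver 1 and 1.20 over the 32 family genes that reached 10 counts in each of the 6 livers. By limma on log2(TPM + 1), which understates the change of low genes, the medians were 0.25 in intra-C and 0.46 in intra-S, and on log2(TPM + 0.1) they were 0.61 and 1.12. Positive values were held by 41 and 39 of the 52, beside 50.6% and 52.1% of all tested genes. The values of the groups did not overlap for 39 of the 52 in intra-C and for 40 in intra-S, beside 68.4% and 60.4% of all tested genes. The calls depended on single livers. Without either sham liver neither comparison called any gene. Without intra-C liver 1 or 2, the family genes called were 1 and 0 in intra-C, beside 0.369% and 0.346% of all genes, and 7 and 6 in intra-S, beside 3.08% and 2.79%. Without intra-S liver 1 or 2 they were 23 and 23 in intra-C, beside 26.5% and 26.3% of all genes, and 26 and 31 in intra-S, beside 16.5% and 32.7%. Without TMM scaling the median of all genes moved to -0.25 in intra-C and -0.23 in intra-S, and 8 and 20 of the family genes were called, beside 8.37% and 11.9% of all genes.

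**Figure D1:**
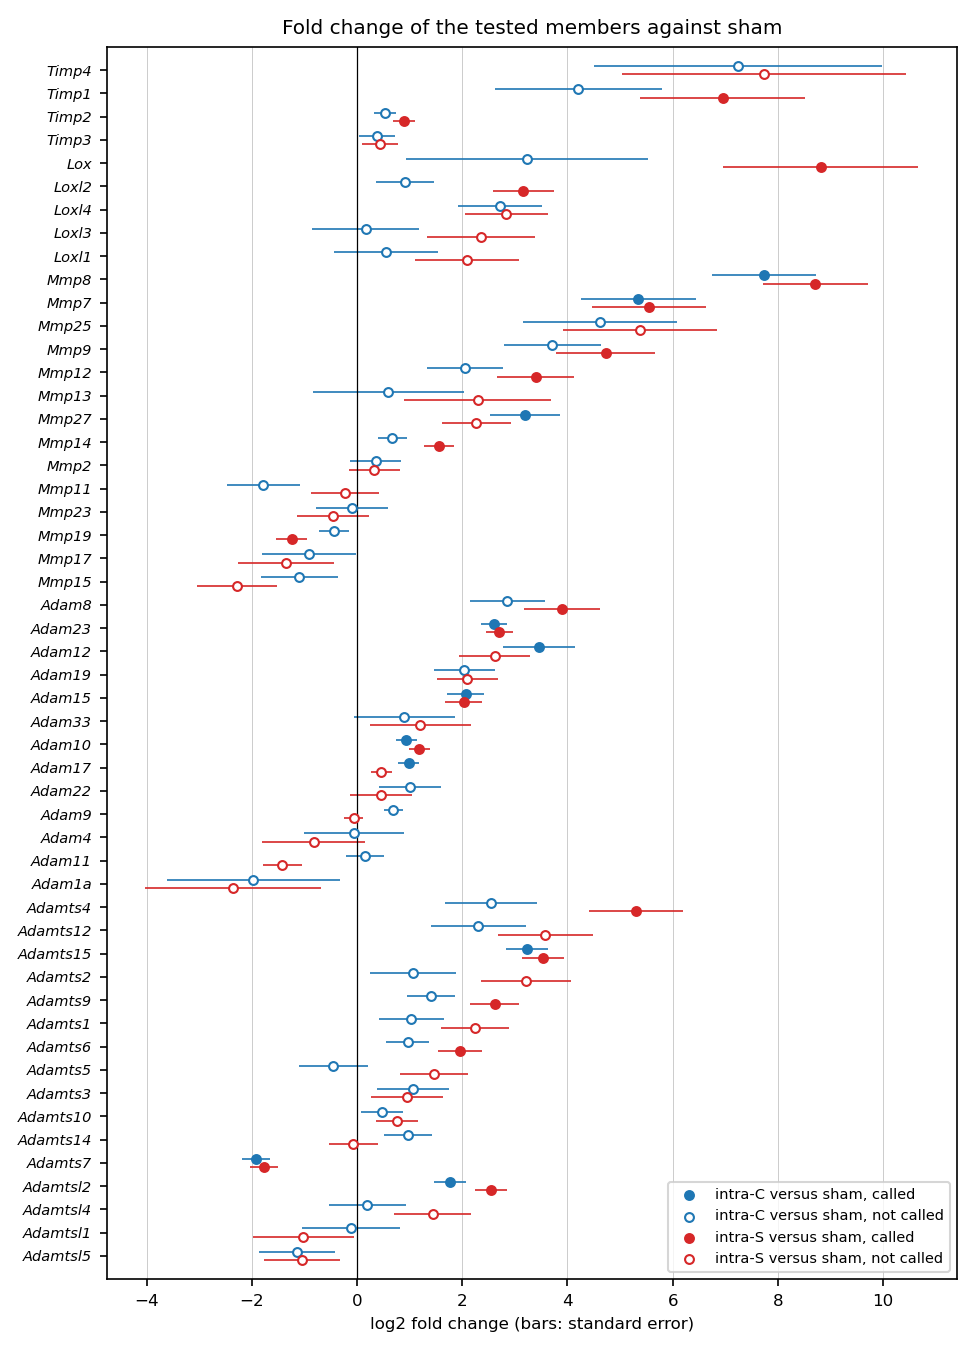
Log2 fold change against sham of the 52 tested genes (points, filled where called; bars are standard errors), for intra-C (blue) and intra-S (red), grouped by family. Most points lie to the right of 0, while Adamts7 and Mmp19 are the called genes to its left.

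**Figure D2:**
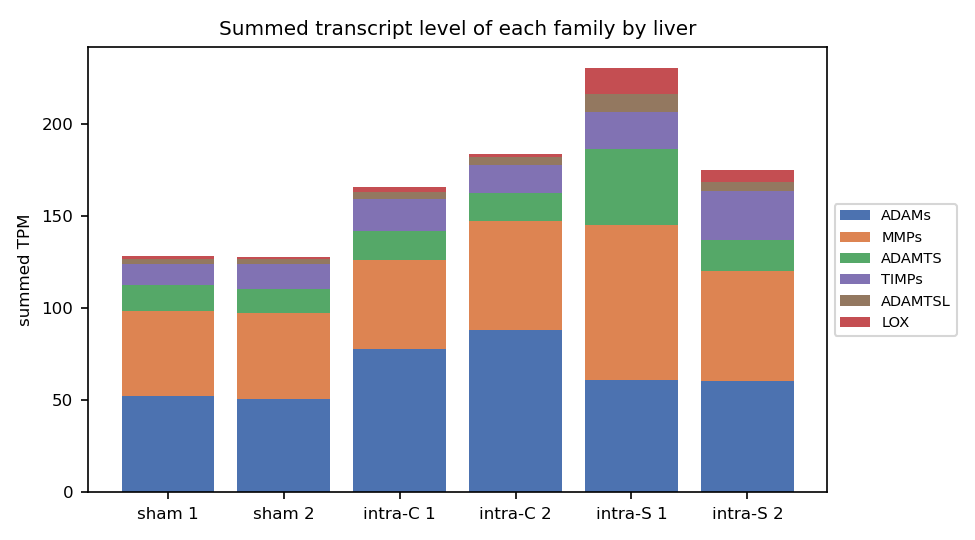
Summed TPM of each family in each of the 6 livers, stacked from 0. The totals are 128 in both sham livers and reach 230.0 in intra-S liver 1, where the MMP and ADAMTS segments are tallest.

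The ADAMs had the highest summed TPM of the families in every sham and intra-C liver, whereas the MMPs were ahead in intra-S liver 1. The ADAMs summed to 52.1 and 50.4 TPM in sham, 77.8 and 87.9 TPM in intra-C, and 61.1 and 60.6 TPM in intra-S. The MMPs summed to 46.2 and 46.9 TPM in sham, 48.2 and 59.2 TPM in intra-C, and 83.9 and 59.3 TPM in intra-S. The lysyl oxidases were a small family in sham at 1.53 and 1.31 TPM, and stood at 2.68 and 1.79 TPM in intra-C and 14.2 and 6.77 TPM in intra-S. The TIMPs summed to 11.4 and 13.2 TPM in sham, 17.2 and 14.8 TPM in intra-C, and 20.0 and 26.6 TPM in intra-S. Averaged over the livers, the ADAM sum was highest in intra-C, and the sums of the MMPs, TIMPs and lysyl oxidases were highest in intra-S. In whole liver, more cells of a type and more RNA per cell cannot be told apart, here and in every result that follows.

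The collagenase Mmp8 and the gelatinase Mmp9 were at trace levels in sham livers and were called higher in intra-S, Mmp8 also in intra-C. Mmp8, the collagenase that neutrophils store in their granules, had 0.0246 and 0.0453 CPM in sham livers, 7.31 and 9.10 CPM in intra-C livers and 26.2 and 6.18 CPM in intra-S livers. The sham livers held 3 reads of it in all, against 581 in the intra-C and 1151 in the intra-S livers. By read numbers, Mmp8 was 229-fold (95% counting interval 78.1 to 1115) higher in intra-C and 433-fold (95% counting interval 148 to 2104) higher in intra-S, with adjusted p = 0.0130 and 0.00782. Such intervals cover counting error only, and reads without molecular identifiers are not independent molecules. Mmp9, the gelatinase that neutrophils and macrophages release and that the study itself used as a premetastatic marker, had 0.0739 and 0.362 CPM in sham livers, 1.66 and 4.24 CPM in intra-C livers and 8.89 and 2.99 CPM in intra-S livers. All 4 tumor livers exceeded both sham livers. Its log2 fold change was 4.73 ± 0.94 (SE, adjusted p = 0.0307) in intra-S, which was called, and 3.71 ± 0.92 (SE, adjusted p = 0.0626) in intra-C, which was not. In intra-C, Mmp9 was called by DESeq2, without a filter on low counts and with only the 2 groups in the fit. It was not called there with the replicate block, other scalings, a robust spread or either limma fit. Its call in intra-S was lost with only the 2 groups in the fit and by limma on log2(TPM + 1). Mmp2, the gelatinase of stromal cells, had 0.714 and 1.29 CPM in sham livers, 1.32 and 1.24 CPM in intra-C livers and 1.20 and 1.32 CPM in intra-S livers and was not called. The ranges of its groups overlapped, and the log2 fold changes were 0.35 ± 0.49 (SE, adjusted p = 0.687) in intra-C and 0.33 ± 0.48 (SE, adjusted p = 0.687) in intra-S. Mmp25, a membrane-anchored MMP of leukocytes, was not called in either, at 0 and 0.0453 CPM in sham, 0.229 and 1.08 CPM in intra-C and 1.78 and 0.442 CPM in intra-S.

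Neutrophil markers moved with Mmp8 and Mmp9. All 13 listed neutrophil markers were called higher in both comparisons, and their summed level was 4.04 to 5.25 CPM in sham, 349.6 to 701 CPM in intra-C and 487 to 1105 CPM in intra-S. The granule genes Mpo, Elane, Ctsg and Camp were at 0 in both sham livers. Mpo, for example, reached 14.5 and 36.0 CPM in intra-C and 19.3 and 21.7 CPM in intra-S. Within intra-S, liver 1 had the higher Mmp8, the higher Mmp9 and the higher neutrophil sum, and within intra-C, liver 2 had the higher value of all 3. The part of neutrophil number in these values was not tested.

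Of 17 MMPs listed, 7 lie side by side on chromosome 9, in a block that holds 4 of the called genes. The block spans chr9:7272514-7699585 (GRCm38.p6, RefSeq), which is 427072 bp, and holds Mmp13, Mmp12, Mmp3, Mmp10, Mmp8, Mmp27 and Mmp7 with no other listed gene between them. Of its 5 tested genes, 3 were called higher in each comparison. Of the other 9 tested MMPs, none was called higher in intra-C and Mmp9 and Mmp14 were in intra-S. A difference between the block and the other MMPs was not tested. To set these neighbors side by side, the 100 bases before the start of each of the 7 genes are printed here from RefSeq, 5′ to 3′, with the AP-1 motif TGANTCA and the TATA motif TATAAA in capitals. Mmp12 and Mmp7 each have 2 annotated starts, and only the start whose window overlaps no annotated exon is shown, which is the second for Mmp12 and the first for Mmp7.
Mmp13 (chr9:7272414-7272513, plus strand): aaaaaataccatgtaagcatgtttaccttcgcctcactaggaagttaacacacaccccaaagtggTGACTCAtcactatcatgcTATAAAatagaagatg
Mmp12 (chr9:7347274-7347373, plus strand): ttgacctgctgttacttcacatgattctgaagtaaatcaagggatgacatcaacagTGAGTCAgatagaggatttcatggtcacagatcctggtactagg
Mmp3 (chr9:7445722-7445821, plus strand): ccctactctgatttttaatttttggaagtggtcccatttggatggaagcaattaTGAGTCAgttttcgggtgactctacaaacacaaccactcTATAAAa
Mmp10 (chr9:7502242-7502341, plus strand): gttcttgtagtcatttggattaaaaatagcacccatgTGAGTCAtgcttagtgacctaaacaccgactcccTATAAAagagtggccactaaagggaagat
Mmp8 (chr9:7558329-7558428, plus strand): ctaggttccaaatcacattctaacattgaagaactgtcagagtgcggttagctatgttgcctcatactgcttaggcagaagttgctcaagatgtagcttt
Mmp27 (chr9:7571296-7571395, plus strand): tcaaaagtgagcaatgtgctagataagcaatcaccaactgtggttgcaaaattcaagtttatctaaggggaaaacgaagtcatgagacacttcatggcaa
Mmp7 (chr9:7691990-7692089, plus strand): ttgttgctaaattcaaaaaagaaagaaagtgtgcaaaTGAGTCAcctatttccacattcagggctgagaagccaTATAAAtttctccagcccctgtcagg
The printed windows of Mmp13, Mmp12, Mmp3, Mmp10 and Mmp7 hold the AP-1 letters, the windows of the other starts of Mmp12 and Mmp7 do not, and those of Mmp8 and Mmp27 hold neither motif. Over the 250 bases before the start, searched on both strands, the AP-1 letters were found in 6 of the 36 family genes with a promoter entry (16.7%) and in 7.82% of the 27025 genes in the table. The same search for the STAT motif TTCNNNGAA found it in 1 of the 36 (Mmp23) and in 8.13% of all. TATAAA, searched on the gene's strand alone, was in 6 of the 36 and in 8.94% of all. Motifs were counted separately, so that matches may overlap, and a match is a description of the sequence, not a site.

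The other genes of the block were low in sham livers. Mmp7 or matrilysin, an epithelial and leukocyte protease at chr9:7692090-7699585, had 0.0246 and 0 CPM in sham livers, 0.484 and 0.742 CPM in intra-C livers and 0.846 and 0.564 CPM in intra-S livers. Its sham livers held 1 read in all, so that it was 50.9-fold (95% counting interval 8.66 to 2057) higher in intra-C and 58.7-fold (95% counting interval 10.1 to 2364) higher in intra-S by read numbers (adjusted p = 0.0395 and 0.0299). Mmp12, the macrophage elastase, had 0.0739 and 0.181 CPM in sham livers, 0.586 and 0.495 CPM in intra-C livers and 0.992 and 1.77 CPM in intra-S livers. Its log2 fold change was 3.39 ± 0.73 (SE, adjusted p = 0.0367) in intra-S and 2.05 ± 0.72 (SE, adjusted p = 0.134) in intra-C, where it was not called. Mmp27, which is close to the stromelysins in sequence, had 0.148 and 0.294 CPM in sham livers, 1.27 and 2.85 CPM in intra-C livers and 1.22 and 0.932 CPM in intra-S livers. It was called in intra-C at a log2 fold change of 3.19 ± 0.67 (SE, adjusted p = 0.0418), and in intra-S it was at 2.26 ± 0.66 (SE, adjusted p = 0.0765). The call was lost without TMM scaling and by limma on log2(TPM + 1). On the opposite strand, exons of Mmp12 share 157 bp with Mmp1b and those of Mmp7 share 123 bp with AV064505. The interstitial collagenase Mmp13 had 0.246 and 0.0679 CPM in sham, 0.0509 and 0.433 CPM in intra-C and 0.146 and 1.40 CPM in intra-S and was not called. The stromelysin Mmp3 was at 0 in all livers but one, intra-S liver 2, where it reached 2.97 CPM, and Mmp10, another stromelysin, was detected in the same liver alone at 0.147 CPM. Neither passed the filter for testing. A count of 0 allows up to 3 counts, which is 0.0679 to 0.0928 CPM in these libraries.

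The monocyte and macrophage markers moved as well. Of 10 listed, 8 were called higher in intra-C and 7 in intra-S, and their sum ran from 138 to 145 CPM in sham, 567 to 771 CPM in intra-C and 458 to 755 CPM in intra-S. None was at 0 in a sham liver, Ly6c2 being the lowest there at 0.0493 and 0.362 CPM. Ly6c2 was not called, at a log2 fold change of 3.21 ± 1.00 (SE, adjusted p = 0.103) in intra-C and 3.22 ± 1.00 (SE, adjusted p = 0.0888) in intra-S. Nor was Ccr2, at 2.72 ± 0.76 (SE, adjusted p = 0.0824) in intra-C and 2.97 ± 0.77 (SE, adjusted p = 0.0571) in intra-S. Itgam, which encodes CD11b, a marker the study uses for myeloid cells in general, rose by a log2 fold change of 5.05 ± 0.46 (SE, adjusted p = 0.00702) in intra-C and 5.46 ± 0.46 (SE, adjusted p = 0.00578) in intra-S. The scavenger receptor gene Marco was called at a log2 fold change of 3.77 ± 0.50 (SE, adjusted p = 0.0149) in intra-C and 4.34 ± 0.51 (SE, adjusted p = 0.00892) in intra-S. Adgre1, which encodes F4/80, was called at a log2 fold change of 3.37 ± 0.62 (SE, adjusted p = 0.0317) in intra-C and 2.54 ± 0.60 (SE, adjusted p = 0.0466) in intra-S. Csf1r, the receptor for macrophage growth factor, was at a log2 fold change of 2.46 ± 0.28 (SE, adjusted p = 0.00949) in intra-C, and the lysozyme gene Lyz2 was at 2.50 ± 0.32 (SE, adjusted p = 0.0110) in intra-S. The part of these cells in the Mmp12 and Mmp27 values was not tested.

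Among the membrane-bound MMPs, Mmp14 was the most abundant in TPM and was called higher in intra-S. Mmp14 (MT1-MMP), which activates pro-Mmp2 at the cell surface, had 32.9 and 27.4 CPM in sham livers, 44.8 and 51.3 CPM in intra-C livers and 109.9 and 67.3 CPM in intra-S livers. Both intra-C livers lay above sham and both intra-S livers above intra-C. It was called in intra-S, at a log2 fold change of 1.55 ± 0.28 (SE, adjusted p = 0.0244), and not in intra-C, at 0.67 ± 0.28 (SE, adjusted p = 0.184). In TPM it stood at 19.5 and 16.2 in sham and 51.1 and 33.5 in intra-S, and it was the highest MMP in each of the 6 livers but sham liver 2, where Mmp19 was higher. Mmp15 (MT2-MMP) had lower values in the tumor livers, at 12.5 and 14.8 CPM in sham livers, 7.16 and 5.60 CPM in intra-C livers and 0.700 and 4.88 CPM in intra-S livers, and was not called in intra-S, at a log2 fold change of -2.28 ± 0.76 (SE, adjusted p = 0.106). Mmp17 was low throughout, at 0.246 and 0.294 CPM in sham, 0.102 and 0.186 CPM in intra-C and 0.0583 and 0.147 CPM in intra-S. Mmp19, a secreted MMP that liver expresses at rest, had 28.0 and 30.9 CPM in sham livers, 22.0 and 21.6 CPM in intra-C livers and 8.89 and 15.9 CPM in intra-S livers. The order was sham over intra-C over intra-S without overlap, and the fall was called in intra-S at a log2 fold change of -1.24 ± 0.29 (SE, adjusted p = 0.0467) but not in intra-C at -0.43 ± 0.29 (SE, adjusted p = 0.384). An exon of Mmp19 shares 789 bp with Tmem198b on the opposite strand, and reads there may belong to either gene, since the strand setting of the counting is not given. Mmp11 (stromelysin-3) had 0.493 and 0.566 CPM in sham, 0.178 and 0.124 CPM in intra-C and 0.408 and 0.491 CPM in intra-S and was not called, with exons that share 155 bp with Chchd10. Mmp23, whose prodomain keeps it in the membrane, had 0.394 and 0.724 CPM in sham, 0.611 and 0.433 CPM in intra-C and 0.525 and 0.294 CPM in intra-S and was not called, and Mmp28 was too low to test, at 0 and 0.136 CPM in sham, 0.0764 and 0 CPM in intra-C and 0.0292 and 0.0981 CPM in intra-S.

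**Figure D3:**
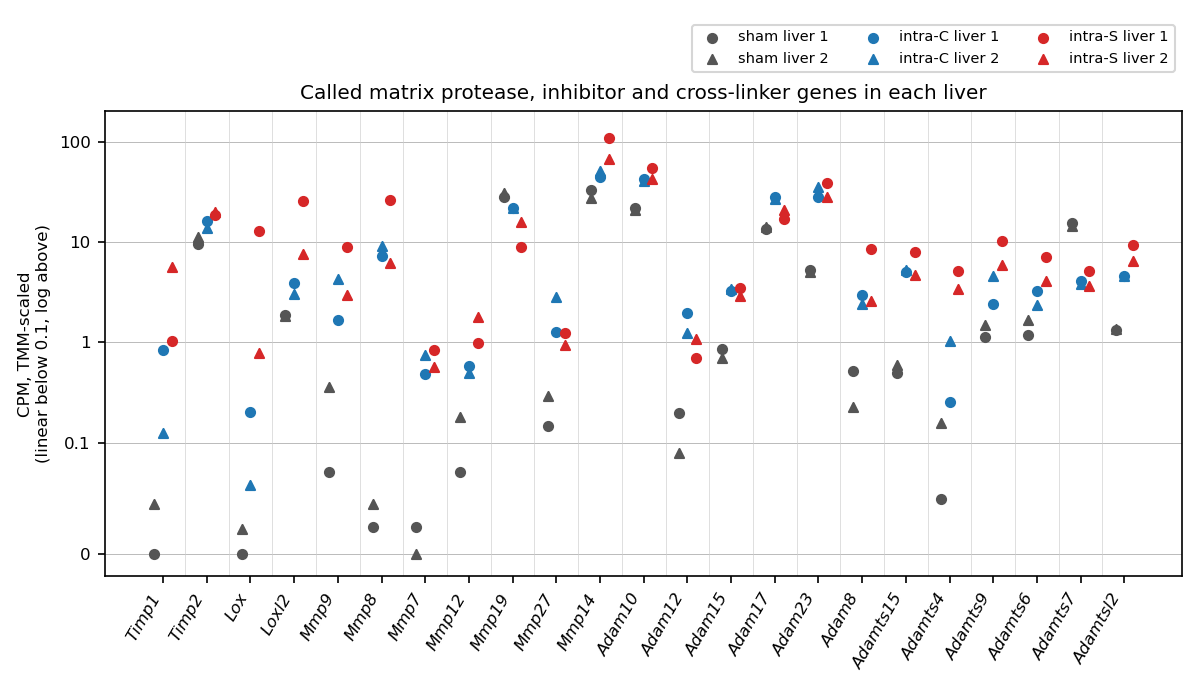
TMM-scaled CPM in each liver of the 23 genes called in either comparison with sham (axis linear below 0.1 and logarithmic above), with sham in gray, intra-C in blue and intra-S in red, circles for liver 1 and triangles for liver 2. For Mmp8 the sham points sit under 0.1 CPM and all 4 tumor points above 6 CPM, and Adamts7 is the gene whose tumor points all lie below sham in both groups by a called difference.

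Of the 16 ADAMs listed, 13 were tested, with 5 called higher in intra-C and 4 in intra-S and none lower. Adam10, a ubiquitous sheddase of Notch and cadherins, had 21.9 and 21.05 CPM in sham livers, 42.2 and 40.2 CPM in intra-C livers and 54.7 and 42.9 CPM in intra-S livers. The log2 fold change was 0.94 ± 0.20 (SE, adjusted p = 0.0433) in intra-C and 1.18 ± 0.20 (SE, adjusted p = 0.0206) in intra-S. Adam17, the TNF-releasing sheddase TACE, had 13.6 and 14.0 CPM in sham livers, 27.9 and 26.5 CPM in intra-C livers and 17.1 and 20.9 CPM in intra-S livers. It was called in intra-C at a log2 fold change of 0.98 ± 0.19 (SE, adjusted p = 0.0368) and not in intra-S at 0.46 ± 0.19 (SE, adjusted p = 0.165), although all 4 tumor livers lay above sham. The direct difference between the tumor groups was a log2 fold change of -0.52 ± 0.19 (SE, adjusted p = 0.349). The calls of Adam10 and Adam17 in intra-C were lost without TMM scaling and by limma on TPM. Adam17 also shares 311 bp of exon with Iah1 on the opposite strand. Adam9, the most abundant of all 59 genes in TPM in both sham and intra-C livers, had 47.9 and 52.4 CPM in sham, 77.5 and 83.9 CPM in intra-C and 47.2 and 49.0 CPM in intra-S. It was not called, at a log2 fold change of 0.69 ± 0.18 (SE, adjusted p = 0.0731) in intra-C.

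Adam23 was called higher in both groups. Adam23, a catalytically inactive adhesion protein at chr1:63445717-63596111 that is best known from neurons, had 5.30 and 5.03 CPM in sham livers, 27.9 and 35.2 CPM in intra-C livers and 39.1 and 28.4 CPM in intra-S livers. The 2 sham livers were close together, and the lowest tumor liver lay above them. The log2 fold change was 2.61 ± 0.25 (SE, adjusted p = 0.00702) in intra-C and 2.71 ± 0.25 (SE, adjusted p = 0.00578) in intra-S. It was also the one family gene called when intra-C liver 1 was left out of its comparison. Adam15, an ADAM of endothelium and leukocytes that binds integrins, had 0.862 and 0.702 CPM in sham livers, 3.21 and 3.37 CPM in intra-C livers and 3.50 and 2.90 CPM in intra-S livers, which gave a log2 fold change of 2.07 ± 0.35 (SE, adjusted p = 0.0267) in intra-C and 2.03 ± 0.35 (SE, adjusted p = 0.0218) in intra-S. Its exons share 1263 bp with the antisense gene 4731419I09Rik, so that reads there may belong to either gene. Adam8, which granulocytes and macrophages carry, had 0.517 and 0.226 CPM in sham livers, 2.98 and 2.41 CPM in intra-C livers and 8.54 and 2.55 CPM in intra-S livers. It was called in intra-S at a log2 fold change of 3.89 ± 0.73 (SE, adjusted p = 0.0261) and missed the threshold in intra-C at 2.86 ± 0.71 (SE, adjusted p = 0.0630). Adam12, known from activated stellate cells and tumors, had 0.197 and 0.0905 CPM in sham livers, 1.96 and 1.24 CPM in intra-C livers and 0.700 and 1.08 CPM in intra-S livers. It was called in intra-C at a log2 fold change of 3.46 ± 0.68 (SE, adjusted p = 0.0367) and not in intra-S at 2.61 ± 0.67 (SE, adjusted p = 0.0568). Adam11, another inactive neuronal ADAM, had lower values in intra-S, at 9.17 and 4.71 CPM in sham, 7.08 and 8.38 CPM in intra-C and 2.51 and 2.65 CPM in intra-S, and was not called there, at a log2 fold change of -1.43 ± 0.37 (SE, adjusted p = 0.0593). Adam19, a sheddase of neuregulin, had 0.345 and 0.815 CPM in sham, 1.76 and 3.06 CPM in intra-C and 3.00 and 1.99 CPM in intra-S. All 4 tumor livers lay above sham, and it missed the threshold at a log2 fold change of 2.04 ± 0.58 (SE, adjusted p = 0.0848) in intra-C and 2.09 ± 0.58 (SE, adjusted p = 0.0678) in intra-S.

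The other ADAMs were not called in either comparison. Adam22, a relative of Adam23 without protease activity, had 0.394 and 0.453 CPM in sham, 0.840 and 0.866 CPM in intra-C and 0.729 and 0.442 CPM in intra-S. Adam33, an ADAM of mesenchymal cells, had 1.50 and 0.589 CPM in sham, 1.09 and 2.82 CPM in intra-C and 0.612 and 4.17 CPM in intra-S, and its groups overlapped. Adam4 had 1.48 and 0.543 CPM in sham, 1.04 and 0.897 CPM in intra-C and 0.117 and 1.01 CPM in intra-S. Adam1a, a testis gene, had 0.813 and 0.385 CPM in sham, 0 and 0.309 CPM in intra-C and 0 and 0.221 CPM in intra-S, and its exons share 1805 bp with Mapkapk5 on the same strand. Adam2, Adam3 and Adam32, known from testis, were too low to test, with highest values of 0.255 CPM in intra-C liver 1 for Adam2, 0.186 CPM in intra-C liver 2 for Adam3 and 0.370 CPM in sham liver 1 for Adam32. Endothelial markers, which could bear on Adam15, were called higher in 4 of 8 cases in each comparison, with sums of 113 to 122 CPM in sham, 271 to 287 CPM in intra-C and 237 to 368 CPM in intra-S. Pecam1 was called at a log2 fold change of 2.25 ± 0.29 (SE, adjusted p = 0.0130) in intra-C and 2.40 ± 0.29 (SE, adjusted p = 0.00912) in intra-S, and Cdh5, which encodes VE-cadherin, at 2.03 ± 0.31 (SE, adjusted p = 0.0197) in intra-C and 2.41 ± 0.31 (SE, adjusted p = 0.0111) in intra-S. The receptor genes Tek and Kdr were called in intra-C, at a log2 fold change of 1.26 ± 0.22 (SE, adjusted p = 0.0286) and 0.84 ± 0.19 (SE, adjusted p = 0.0492), and the sinusoidal receptor genes Lyve1 and Stab2 in intra-S, at 5.57 ± 1.01 (SE, adjusted p = 0.0242) and 1.58 ± 0.35 (SE, adjusted p = 0.0403). None of the 8 was at 0 in sham, and their part was not tested.

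Of the 5 ADAMTS enzymes that cut proteoglycans, 1 was called higher in intra-C and 3 in intra-S, with Adamts15 in both and Adamts4 and Adamts9 in intra-S. Adamts15, a versicanase and aggrecanase, had 0.493 and 0.589 CPM in sham livers, 4.99 and 5.23 CPM in intra-C livers and 8.02 and 4.64 CPM in intra-S livers. All 4 tumor livers lay above 4 CPM and both sham livers below 1 CPM, giving a log2 fold change of 3.23 ± 0.39 (SE, adjusted p = 0.0118) in intra-C and 3.54 ± 0.40 (SE, adjusted p = 0.00782) in intra-S. Adamts4, an aggrecanase that inflammation is known to induce, had 0.0493 and 0.158 CPM in sham livers, 0.255 and 1.02 CPM in intra-C livers and 5.13 and 3.43 CPM in intra-S livers. The intra-S livers lay above the intra-C livers and these above sham, with a log2 fold change of 5.30 ± 0.89 (SE, adjusted p = 0.0201) in intra-S and 2.55 ± 0.87 (SE, adjusted p = 0.126) in intra-C. Adamts9, which cuts versican and acts in endothelium, had 1.13 and 1.47 CPM in sham livers, 2.39 and 4.55 CPM in intra-C livers and 10.1 and 5.91 CPM in intra-S livers, and was at a log2 fold change of 2.62 ± 0.46 (SE, adjusted p = 0.0227) in intra-S and 1.41 ± 0.45 (SE, adjusted p = 0.110) in intra-C. Adamts1 was the most abundant of the 5 in TPM and was not called, its intra-S livers being far apart, with 7.10 and 7.76 CPM in sham livers, 17.5 and 12.9 CPM in intra-C livers and 57.5 and 12.9 CPM in intra-S livers and a log2 fold change of 2.24 ± 0.64 (SE, adjusted p = 0.0740). Adamts5 was not called either, at 1.92 and 1.40 CPM in sham, 1.43 and 0.990 CPM in intra-C and 7.29 and 1.89 CPM in intra-S. Exons of both Adamts4 and Adamts9 are partly overlapped on the opposite strand, those of Adamts9 over 1381 bp by A730049H05Rik.

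Versican, the substrate that Adamts1, Adamts4, Adamts9 and Adamts15 share, was also higher. Its gene Vcan had 0.148 and 0.136 CPM in sham livers, 3.36 and 6.19 CPM in intra-C livers and 0.904 and 4.05 CPM in intra-S livers, with a log2 fold change of 5.04 ± 0.87 (SE, adjusted p = 0.0277) in intra-C and 4.10 ± 0.86 (SE, adjusted p = 0.0343) in intra-S.

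Adamts7 was called lower in both groups. This enzyme, known for cutting cartilage oligomeric matrix protein and for its link to vascular disease, had 15.4 and 14.6 CPM in sham livers, 4.10 and 3.81 CPM in intra-C livers and 5.19 and 3.63 CPM in intra-S livers. The 4 tumor livers lay between 3.63 and 5.19 CPM, and the log2 fold change was -1.92 ± 0.27 (SE, adjusted p = 0.0168) in intra-C and -1.77 ± 0.27 (SE, adjusted p = 0.0156) in intra-S. Exons of Adamts7 share 122 bp with Tbc1d2b on the opposite strand. Adamts6, which acts on fibrillin-rich matrix, had 1.18 and 1.68 CPM in sham livers, 3.21 and 2.35 CPM in intra-C livers and 7.09 and 4.07 CPM in intra-S livers and was called in intra-S at a log2 fold change of 1.96 ± 0.42 (SE, adjusted p = 0.0360), but not in intra-C at 0.96 ± 0.41 (SE, adjusted p = 0.198). Neither limma fit on TPM called it. Adamts10, which binds fibrillin, had 5.64 and 3.98 CPM in sham, 5.40 and 7.95 CPM in intra-C and 5.69 and 10.5 CPM in intra-S and was not called. Adamts12 had 0.222 and 0.0679 CPM in sham, 1.09 and 0.340 CPM in intra-C and 1.17 and 2.33 CPM in intra-S, above sham in all 4 tumor livers, and missed the threshold at a log2 fold change of 2.31 ± 0.90 (SE, adjusted p = 0.162) in intra-C and 3.58 ± 0.91 (SE, adjusted p = 0.0556) in intra-S.

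None was called of the procollagen N-proteinases Adamts2, Adamts3 and Adamts14, which trim the fibrillar procollagens. Adamts2 had 2.17 and 1.54 CPM in sham, 4.23 and 3.50 CPM in intra-C and 30.2 and 4.32 CPM in intra-S, so that its large mean in intra-S came from 1 liver, with a log2 fold change of 3.21 ± 0.85 (SE, adjusted p = 0.0613). Adamts14 had 1.43 and 0.815 CPM in sham, 2.50 and 1.89 CPM in intra-C and 1.08 and 1.05 CPM in intra-S, and Adamts3 had 0.345 and 0.498 CPM in sham, 1.30 and 0.464 CPM in intra-C and 0.875 and 0.761 CPM in intra-S. Among the ADAMTS-like genes, Adamtsl2, which binds the latent TGF-β complex and fibrillin, had 1.33 and 1.36 CPM in sham livers, 4.58 and 4.58 CPM in intra-C livers and 9.27 and 6.48 CPM in intra-S livers. The groups did not overlap, and it was called at a log2 fold change of 1.77 ± 0.31 (SE, adjusted p = 0.0277) in intra-C and 2.55 ± 0.31 (SE, adjusted p = 0.00937) in intra-S. Adamtsl4, which binds fibrillin microfibrils, had 3.42 and 2.22 CPM in sham, 2.93 and 3.53 CPM in intra-C and 12.9 and 2.38 CPM in intra-S and was not called. Adamtsl1 had 0.296 and 0.566 CPM in sham, 0.662 and 0.124 CPM in intra-C and 0.175 and 0.245 CPM in intra-S, Adamtsl5 had 0.443 and 1.20 CPM in sham, 0.433 and 0.309 CPM in intra-C and 0.350 and 0.442 CPM in intra-S, and neither was called. Adamtsl3 was at 0 in both sham livers, did not exceed 0.221 CPM in any liver and was too low to test.

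Of the 4 TIMPs, Timp1 and Timp2 were called higher in intra-S and none in intra-C. Timp1, the inducible inhibitor at chrX:20870166-20874737, had 0 and 0.0453 CPM in sham livers, 0.840 and 0.124 CPM in intra-C livers and 1.02 and 5.57 CPM in intra-S livers. Both sham livers together held 2 reads of Timp1. By read numbers it was 148-fold (95% counting interval 40.6 to 1228) higher in intra-S (adjusted p = 0.0413) and 21.9-fold (95% counting interval 5.65 to 188) higher in intra-C (adjusted p = 0.154), and in each tumor group 1 liver carried most of it. Timp2, which inhibits Mmp2 and also helps Mmp14 to activate it, had 9.58 and 11.3 CPM in sham livers, 16.2 and 13.8 CPM in intra-C livers and 18.5 and 20.1 CPM in intra-S livers. The differences were small and even between livers, at a log2 fold change of 0.89 ± 0.21 (SE, adjusted p = 0.0465) in intra-S and 0.52 ± 0.21 (SE, adjusted p = 0.170) in intra-C. Timp3, the matrix-bound TIMP that also inhibits Adam17 and aggrecanases, had 11.3 and 12.7 CPM in sham, 15.6 and 15.4 CPM in intra-C and 21.6 and 10.5 CPM in intra-S and was not called, at a log2 fold change of 0.37 ± 0.34 (SE, adjusted p = 0.529) in intra-C and 0.43 ± 0.34 (SE, adjusted p = 0.443) in intra-S. Its exons share 1733 bp with Syn3 on the opposite strand. Timp4 was at 0 in both sham livers and had 0.840 and 0.124 CPM in intra-C and 1.34 and 0.0491 CPM in intra-S. Measured against the 3-count floor of the sham library where it is higher, the group mean was at least 6.52-fold higher in intra-C and at least 9.41-fold higher in intra-S, and Timp4 was not called (adjusted p = 0.166 and 0.128). Liver 1 carried both means, since liver 2 gave a bound of 1.67-fold in intra-C and lay under the sham floor in intra-S. Its exons share 90 bp with Syn2. In TPM, the sham livers had 5.95 and 6.99 of Timp2 and 5.41 and 6.07 of Timp3, which made up most of the TIMP level. In intra-S liver 2 Timp1 was the highest of the 4, at 11.9 TPM.

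Of the 5 lysyl oxidases, Lox and Loxl2 were called higher in intra-S and none in intra-C. Lox, the founding enzyme of the family, had 0 and 0.0226 CPM in sham livers, 0.204 and 0.0619 CPM in intra-C livers and 12.7 and 0.785 CPM in intra-S livers. There was 1 read of Lox in the sham livers together, and the intra-S livers held 529-fold (95% counting interval 94.4 to 20922) more (adjusted p = 0.0352), nearly all of it in liver 1, and neither limma fit on TPM called it. In intra-C it was 11.8-fold (95% counting interval 1.68 to 514) higher (adjusted p = 0.417). Loxl2, which cross-links collagen IV and is followed as a fibrosis target, had 1.87 and 1.81 CPM in sham livers, 3.92 and 3.00 CPM in intra-C livers and 25.3 and 7.63 CPM in intra-S livers. The sham livers were nearly equal, both intra-S livers lay above the other 4, and the log2 fold change was 3.16 ± 0.58 (SE, adjusted p = 0.0249) in intra-S and 0.91 ± 0.55 (SE, adjusted p = 0.342) in intra-C. Its exons share 301 bp with the antisense gene Gm27177, and those of Lox share 30 bp with an antisense gene. Loxl3 had 0.985 and 0.679 CPM in sham, 1.15 and 0.712 CPM in intra-C and 0.671 and 7.80 CPM in intra-S, with liver 2 of intra-S far above all others, and was not called in intra-S, at a log2 fold change of 2.35 ± 1.03 (SE, adjusted p = 0.182). Its exons share 535 bp with Htra2 on the opposite strand. Loxl4 had 0.0493 and 0.181 CPM in sham, 0.789 and 0.773 CPM in intra-C and 0.642 and 1.05 CPM in intra-S, above sham in all 4 tumor livers, and missed the threshold at a log2 fold change of 2.71 ± 0.79 (SE, adjusted p = 0.0902) in intra-C and 2.84 ± 0.79 (SE, adjusted p = 0.0693) in intra-S. Loxl1, which acts on elastin, had 0.443 and 0.272 CPM in sham, 0.917 and 0.124 CPM in intra-C and 2.25 and 0.834 CPM in intra-S and was not called.

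Stellate cells and fibroblasts are known to make TIMPs and lysyl oxidases. Of 10 tested markers of these cells, 0 were called in intra-C and 4 were called higher in intra-S, with sums of 273 to 290.0 CPM in sham, 334 to 335 CPM in intra-C and 500 to 527 CPM in intra-S. None was at 0 in sham, the lowest being Acta2 at 0.0739 and 0.453 CPM. Values were positive for 9 of the 10 in each comparison. The exception was Lrat in intra-C, at a log2 fold change of -0.72 ± 0.20 (SE, adjusted p = 0.0841). In intra-S it was Reln, at -0.50 ± 0.21 (SE, adjusted p = 0.169). Both lay below sham without overlap, and Des and Acta2 overlapped sham in both comparisons. Col1a1 was called at a log2 fold change of 1.98 ± 0.40 (SE, adjusted p = 0.0319), Rgs5 at 1.55 ± 0.36 (SE, adjusted p = 0.0450), Pdgfra at 1.44 ± 0.26 (SE, adjusted p = 0.0243) and Dcn at 0.93 ± 0.19 (SE, adjusted p = 0.0333). Col1a1 and Dcn are also among the matrix genes counted below. The part of stellate cells and fibroblasts in the Timp1, Lox and Loxl2 values was not tested. Of 4 listed intestinal epithelial markers, Krt20 was found in intra-S liver 2 alone at 6.13 CPM, the liver with Mmp3 and the higher Timp1 and Loxl3, and Muc2 reached 2.51 CPM in intra-S liver 1 and 0.0509 CPM in intra-C liver 1. All 4 but Lgr5 were at 0 in both sham livers, and the sums were 1.74 to 2.14 CPM in sham, 2.75 to 4.46 CPM in intra-C and 2.65 to 9.42 CPM in intra-S. How many reads of these libraries came from CT26 cells was not tested.

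The 2 intra-S livers differed from each other in many of these genes. Among genes with a mean of at least 1 CPM in the group, a difference of more than 4-fold between its livers was found in 0 of 24 tested family genes in sham, 0 of 31 in intra-C and 10 of 38 in intra-S. The share in intra-S was 26.3%, beside 5.48% of all tested genes at that level, which was 0.246% in sham and 0.892% in intra-C. Lox (16.2-fold), Adamts2 (6.98-fold), Adamtsl4 (5.44-fold), Adamts1 (4.46-fold), Mmp8 (4.24-fold) and Mmp25 (4.03-fold) were higher in liver 1. Loxl3 (11.6-fold), Mmp15 (6.98-fold), Adam33 (6.81-fold) and Timp1 (5.46-fold) were higher in liver 2. Enzymes and cross-linkers stood on both sides. Leaving out an intra-S liver raised the calls in intra-S versus sham over all genes, from 10.7% to 16.5% without liver 1 and to 32.7% without liver 2, and those of family genes from 20 to 26 and 31, in fits that take the lone liver to vary like the other groups.

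**Figure D4:**
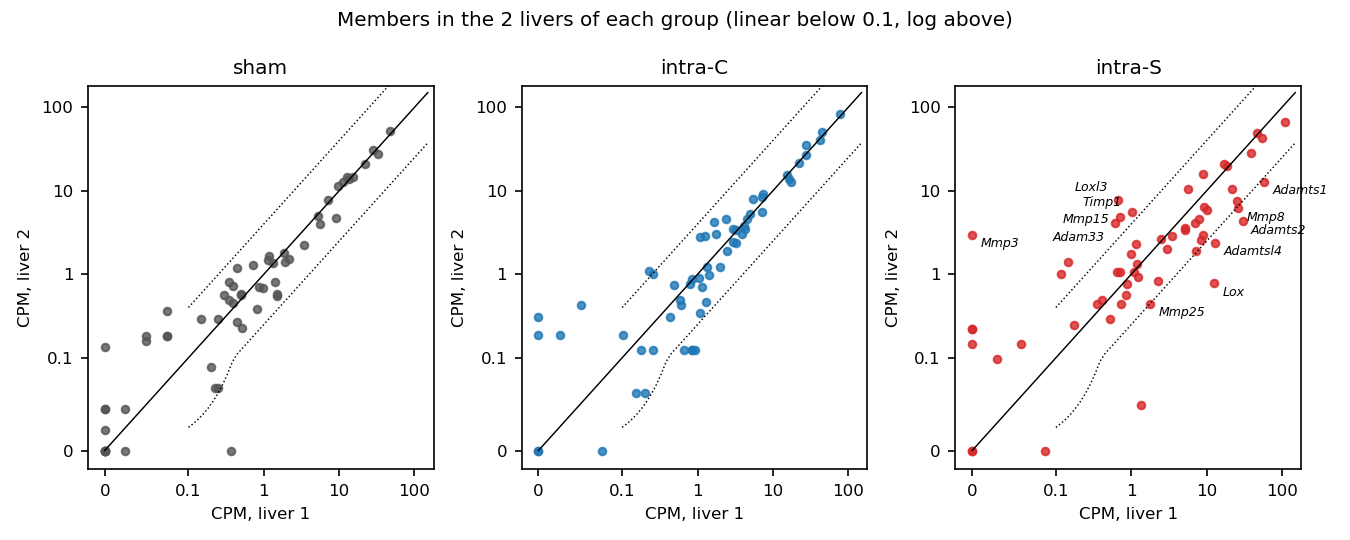
CPM of the 59 genes in liver 2 against liver 1 of each group, with the line of equality (solid) and 4-fold limits (dotted), axes linear below 0.1 and logarithmic above. With a group mean of at least 1 CPM the tested genes of sham and intra-C stay inside the limits, while 10 genes of intra-S, labelled with Mmp3, pass them.

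Between the tumor groups no family gene differed by the test. Intra-S and intra-C livers were compared directly, and 0 of the 16370 genes passed (0% of all), the smallest adjusted p being 0.113. At an unadjusted p under 0.05 there were 13 of the 52 family genes, beside 13.4% of all tested genes. DESeq2 called 5, beside 3.36% of all genes, of which Lox, Loxl2 and Adamts4 were higher and Adam11 and Adam9 lower in intra-S. In the edgeR fit the log2 difference was 5.59 ± 1.44 (SE, adjusted p = 0.285) for Lox, 2.25 ± 0.56 (SE, adjusted p = 0.285) for Loxl2, 2.76 ± 0.75 (SE, adjusted p = 0.291) for Adamts4, -1.58 ± 0.37 (SE, adjusted p = 0.285) for Adam11 and -0.75 ± 0.18 (SE, adjusted p = 0.285) for Adam9. Without intra-S liver 2, 13 family genes were called higher and 4 lower in intra-S than in intra-C, beside 16.5% of all genes called, and without liver 1 none was, beside 0.313%, so this comparison depended on which of the 2 was kept. The groups did not overlap for 24 of the 52, beside 43.3% of all tested genes. Of the genes called against sham, 8 were called in both groups. These were Mmp8, Mmp7, Adam10, Adam15, Adam23, Adamts15, Adamtsl2 and, lower, Adamts7. Both comparisons share the sham livers. The 3 called in intra-C and not in intra-S were Adam12, Adam17 and Mmp27, and 12 were called in intra-S and not in intra-C, a split that the direct test does not show to be a difference.

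Of 27 tested genes that switch the proteases on, hold them at the cell surface or work beside them, 1 was called higher in intra-C and 6 in intra-S. Ctss, a lysosomal elastase of macrophages, was called in both and had 14.5 and 13.2 CPM in sham livers, 90.5 and 97.1 CPM in intra-C livers and 74.8 and 121 CPM in intra-S livers. The urokinase system starts MMP activation through plasmin. The urokinase receptor gene Plaur had 0.148 and 0.272 CPM in sham, 1.73 and 2.69 CPM in intra-C and 13.1 and 3.46 CPM in intra-S and was called in intra-S, with a log2 fold change of 5.27 ± 0.80 (SE, adjusted p = 0.0156). Urokinase itself, Plau, had 0.419 and 0.0905 CPM in sham, 1.22 and 1.52 CPM in intra-C and 1.46 and 4.64 CPM in intra-S and was called there, with a log2 fold change of 3.58 ± 0.87 (SE, adjusted p = 0.0496). Htra3, a secreted serine protease, and Tspan15, which guides Adam10 to the membrane, were called too, at a log2 fold change of 2.94 ± 0.53 (SE, adjusted p = 0.0244) and 1.80 ± 0.34 (SE, adjusted p = 0.0276). Furin, which removes the propeptide of Mmp14 and the ADAMs, had 97.8 and 90.8 CPM in sham, 210.4 and 121 CPM in intra-C and 424 and 71.6 CPM in intra-S and was not called. The MMP inhibitor Reck was not called, at 1.92 and 1.49 CPM in sham, 1.09 and 1.02 CPM in intra-C and 0.933 and 1.91 CPM in intra-S.

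Of 24 tested genes for matrix proteins and for enzymes that modify or cross-link them, 5 were called higher in intra-C and 9 in intra-S, and none was called lower. The enzyme gene Plod2 is 1 of the 9. Fibronectin, Fn1, was the most abundant in TPM averaged over all livers, although Tgm2 was above it in intra-S liver 1, at 958 against 732 TPM. Fn1 had 910.4 and 936 CPM in sham livers, 4436 and 3682 CPM in intra-C livers and 3509.7 and 3154 CPM in intra-S livers, and gave a log2 fold change of 2.14 ± 0.23 (SE, adjusted p = 0.00817) in intra-C and 1.85 ± 0.23 (SE, adjusted p = 0.00936) in intra-S. The basement membrane collagen gene Col4a1, whose product Loxl2 cross-links, had 10.5 and 11.4 CPM in sham livers, 30.3 and 34.1 CPM in intra-C livers and 77.1 and 37.8 CPM in intra-S livers, with a log2 fold change of 1.55 ± 0.34 (SE, adjusted p = 0.0476) in intra-C and 2.39 ± 0.35 (SE, adjusted p = 0.0151) in intra-S. Col5a2, a chain of the fibril collagen V, had 2.07 and 1.45 CPM in sham, 7.38 and 5.72 CPM in intra-C and 7.23 and 9.20 CPM in intra-S, with a log2 fold change of 1.90 ± 0.32 (SE, adjusted p = 0.0267) in intra-C and 2.22 ± 0.33 (SE, adjusted p = 0.0147) in intra-S. Plod2, which hydroxylates the lysines that lysyl oxidases need for stable cross-links, had 0.813 and 0.611 CPM in sham livers, 0.738 and 0.557 CPM in intra-C livers and 3.59 and 3.75 CPM in intra-S livers. It was called in intra-S at a log2 fold change of 2.36 ± 0.42 (SE, adjusted p = 0.0226) and not in intra-C at -0.13 ± 0.42 (SE, adjusted p = 0.873). The fibrillar collagen genes Col1a1 and Col1a2 were called in intra-S alone among the comparisons made, and Col3a1 in none, at 16.9 and 17.8 CPM in sham, 20.6 and 19.7 CPM in intra-C and 17.1 and 68.8 CPM in intra-S. As for the tissue itself, hepatocyte markers summed to 113981 to 121568 CPM in sham and 110750.0 to 185335 CPM in the tumor groups. Alb made up most of the sum, at 94260 and 87423 CPM in sham. Of the 8, 5 had positive values in each comparison. Ttr and Hpd were lower in intra-C without overlap and not called, at a log2 fold change of -0.85 ± 0.22 (SE, adjusted p = 0.0706) and -0.78 ± 0.36 (SE, adjusted p = 0.219). Only Cyp2e1 was called, lower in intra-S, at 7687 and 7172 CPM in sham, 3879.8 and 3946 CPM in intra-C and 2059 and 2607 CPM in intra-S. Of 5 tested cholangiocyte markers Sox9 was called in intra-S at a log2 fold change of 2.12 ± 0.51 (SE, adjusted p = 0.0491), and none of 6 T and NK cell markers was called.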

How the data were processed

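Reads were mapped by the authors to mm10 (HISAT2 2.1.0), and unique exon reads were counted per gene (featureCounts, Subread 2.0.6), with versions per the submitters' processing notes. The deposited values are raw counts, not normalized, and TPM, which the authors derived from these counts and gene lengths. The annotation and the strand setting of the counting are not given in the sources used here. Library totals were 32838321 to 43368309 counts, so that 3 counts, the most a count of 0 allows, equal 0.0679 to 0.0928 CPM.

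Everything else was computed here with R 4.3.3. Counts of all 6 livers entered 1 quasi-likelihood fit of edgeR 4.0.16, with TMM scaling, the filterByExpr filter (count minimum 10) and adjustment over the 16370 genes passing it. The standard error is the log2 fold change divided by the root of the F value. Folds against 1 to 3 sham reads are ratios of summed counts with exact (Clopper-Pearson) intervals. On simulated counts for intra-C versus sham, over 16370 genes, the procedure recovered 80% of the genes changed 4-fold and 99% of those changed 16-fold, and 5 of its 184 calls were false. All simulated livers had the same spread at a given abundance, and only genes with a mean above 1 CPM were changed. These figures therefore do not cover lower genes or livers as uneven as those of intra-S. No test compared lists. With 2 livers per group no permutation of labels can pass the threshold. The alternatives were DESeq2 1.42.0, other filters, only the groups compared, a replicate block, other scalings, limma 3.58.1 on log2(TPM + 1) and log2(TPM + 0.1), a robust spread and each liver left out.

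The family genes and the 10 gene lists of partners and markers were chosen with earlier results of these data known. Genes called in any comparison, with Mmp9 and Timp1, are given in full, other family genes more briefly, and of each list up to 4 called genes with the largest change at a mean of at least 1 CPM. Of the genes this rule names, 1 is not reported here. Named outside this rule, after their values were seen, were Furin, Reck, Tspan15, Acta2, Des, Lrat, Reln, Ly6c2, Ccr2, Col1a2, Col3a1, Tgm2, Alb, Ttr, Hpd, Krt20, Muc2 and Lgr5. All 59 genes matched RefSeq by symbol (GRCm38.p6, the build of mm10), and 36 had an entry in its promoter table. Exon overlaps were read from GENCODE M21.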

Additional observations from a re-analysis of the deposited data

How the results depend on the processing

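Against sham, none of the 23 family genes called in either comparison changed direction under any alternative run. The calls were less stable, and the cause was not tested. Called genes numbered 1195 in intra-C versus sham (2711 by DESeq2 and 4771 with only these groups), 1756 in intra-S versus sham (3400 and 392) and 0 in intra-S versus intra-C (506 by DESeq2, and 2193 genes at an unadjusted p under 0.05 by edgeR). Family genes called higher in intra-C, 10 in the fit reported, were 20 by DESeq2, 6 with at least 10 counts in every liver, 19 with only these groups, 6 with the replicate block and 6 by limma on log2(TPM + 1), and those called lower, 1 there, were 3 with only these groups. Of all genes, 16.3%, 9.04%, 30.5%, 5.69% and 8.51% were called either way in these runs, in that order. Family genes called higher in intra-S, 18 in the fit reported, were 11 with at least 10 counts in every liver, 5 with only these groups and 11 by limma on log2(TPM + 1), and those called lower, 2 there, were 4 by DESeq2 and 0 with only these groups. Of all genes, 12% were called either way with at least 10 counts in every liver, 2.48% with only these groups, 13.7% by that limma fit and 19.5% by DESeq2. In intra-S versus intra-C DESeq2 called 3 higher and 2 lower, beside 3.36% of all genes.

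Leaving out each liver in turn, the called genes ranged from 0 to 4658 in intra-C versus sham, from 0 to 5693 in intra-S versus sham and from 0 to 2884 in intra-S versus intra-C. The family genes called higher ranged from 0 to 21, 0 to 27 and 0 to 13, and those called lower from 0 to 2, 0 to 4 and 0 to 4. The counts of 0 against sham came without either sham liver, and without an intra-C liver intra-C versus sham called 65 and 61 genes and 1 and 0 family genes. Limma on log2(TPM + 1) also lost Adam12 in intra-C and Mmp9, Adam8, Loxl2, Timp1 and Timp2 in intra-S. A lone liver was taken to vary like the other groups. Adam23 was called in 13 of 16 alternatives in intra-C and in 14 of 16 in intra-S, whereas Timp2 kept its call in intra-S in 6 of 16. Without TMM, 41.5% of all calls in intra-C versus sham were higher, instead of 67.4%, and 42.9% instead of 63.2% in intra-S versus sham.

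Same-numbered livers did not deviate together, the correlation of their deviations from the group means being -0.03 for sham and intra-C, 0.08 for sham and intra-S and 0.04 for intra-C and intra-S, so that the numbers do not pair the livers. With the replicate block 7 family genes were called in intra-C, 6 of them among the 11, and 16 in intra-S, all among the 20. Of all genes, 5.69% and 9.21% were called with the block.

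In intra-S versus intra-C, where no family gene was called, some log2 differences changed sign. Leaving out each liver in turn, they ranged from -0.18 to 0.087 for Adam15, -0.15 to 0.31 for Adam23, -0.082 to 1.66 for Adam8, -0.14 to 0.65 for Adamts15, -0.12 to 0.39 for Adamts7, -0.12 to 0.53 for Mmp7 and -0.41 to 1.68 for Mmp8. By limma, Adam23 was at -0.0194 on log2(TPM + 1) and -0.0215 on log2(TPM + 0.1).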
